A study of Mus musculus with 2 samples.

Results

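The 10 genes described here encode proteins that build, anchor or restrain the remodelling of the extracellular matrix: the metalloproteinase inhibitors Timp1, Timp2 and Timp3, the collagen receptor Ddr2, the elastic fibre proteins Eln and Fbn1, the collagen chaperone Serpinh1, the metalloproteinase Mmp2, and the crosslinking enzymes Lox and Loxl1. They were chosen by symbol, 10 of the 32285 genes in the matrices. The RNA came from blood of mice with a wild type genotype that had undergone burn/tenotomy, a model injury of burned skin and a cut tendon. Cells were enriched with the iChip, a microfluidic sorter, labelled as cMPCs (circulating mesenchymal progenitor cells) and blood cells, and barcoded one by one on the 10x Chromium platform. The 2 libraries, replicate 1 and replicate 2, form 1 group, and uninjured blood was not analysed here. Since the labels do not tie the replicates to different animals, their spread may be technical, and no comparison below is between conditions.

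Matrix metalloproteinases cut collagens and other matrix proteins outside the cell, and the secreted TIMP proteins block them, with TIMP3 held in the matrix itself. Elastic fibres form when elastin, the product of Eln, is laid on a scaffold of fibrillin-1, the product of Fbn1, and lysyl oxidases such as the products of Lox and Loxl1 crosslink the fibres. HSP47, the product of Serpinh1, helps procollagen fold inside the cell, and DDR2 is a receptor tyrosine kinase that is switched on by fibrillar collagen. Mesothelial cells, which line the body cavities and the organs in them, and fibroblasts are known producers of such matrix, while platelets are known carriers of matrix regulators in their granules.

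Levels were read in 3 sets of barcodes defined by other genes, over all barcodes, also those in which more than 20% of the UMIs (unique molecular identifiers, each counting 1 captured RNA molecule) were mitochondrial. Mesothelial/collagen barcodes had a UMI of at least 2 of Wt1, Muc16, Gpm6a, Col3a1 and Dcn, and numbered 32 in replicate 1 and 23 in replicate 2, with 104897 and 123730 UMIs and a median of 2203.5 and 4592 UMIs per barcode. Platelet-marker barcodes had at least 2 of Ppbp, Pf4, Itgb3 and Nrgn, and numbered 30 and 32, with 36146 and 43422 UMIs and a median of 900 and 744. Ptprc barcodes had a UMI of the pan-leukocyte gene Ptprc, and numbered 85 and 12, with 211762 and 25627 UMIs and a median of 1702 and 1603.5. The other 863 and 783 barcodes met no rule, and 79.9% and 79.3% of their UMIs were haemoglobin. No barcode sequence was shared between the libraries (0). In replicate 1, 2 barcodes met both the mesothelial/collagen and the Ptprc rule, and in replicate 2, 1 barcode of 11508 UMIs met both the mesothelial/collagen and the platelet rule.

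The mesothelial/collagen barcodes carried all 9 genes of a separate mesothelial list (Msln, Upk3b, Upk1b, Lrrn4, Krt19, Krt8, Krt18, Pkhd1l1 and Rspo1) in both libraries, at 3432 and 5326 counts per 1e6 UMIs of the barcode set (CPM) in all. Of 7 fibroblast markers, Lum and Thy1 were at 0 in both libraries, and the list summed to 458 and 849 CPM. Leukocyte markers stood at 200 and 72.7 CPM there, against 26124 and 6556 CPM in Ptprc barcodes, and platelet markers at 66.7 and 72.7 CPM, against 5505 and 3685 CPM in platelet-marker barcodes. Mitochondrial genes took 15.0% and 11.9% of UMIs in the mesothelial/collagen barcodes, 54.5% and 35.0% in the platelet-marker barcodes and 13.6% and 47.6% in the Ptprc barcodes. These shares differed between sets and libraries, and their part in the results below was not tested.

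Together the 10 genes had 167 UMIs in the mesothelial/collagen barcodes of replicate 1 (1592 CPM, exact Poisson 95% interval 1360 to 1853) and 280 in those of replicate 2 (2263 CPM, 2006 to 2544), a mean of 1928 ± 474 CPM (SD, n = 2). Platelet-marker barcodes had 2 and 32 UMIs (55.3 and 737 CPM), and Ptprc barcodes had 4 and 2 (18.9 and 78.0 CPM). Barcodes that met no rule had 26 and 32 UMIs (7.18 and 10.2 CPM). Both mesothelial/collagen values lay above all values of the other sets, and pooled over both libraries their level was 4.58-fold that of platelet-marker barcodes (counting interval 3.23 to 6.69), 77.4-fold that of Ptprc barcodes (35.3 to 212) and 228-fold that of barcodes that met no rule (173 to 306). Pooled folds here and below are per all UMIs, of which haemoglobin took 79.9% and 79.3% in barcodes that met no rule. It took 3.79% and 0.379% in mesothelial/collagen barcodes. Without mitochondrial and haemoglobin UMIs, the folds of Timp2 over the other sets were smaller. Its mean was then 487 CPM in mesothelial/collagen barcodes, in place of 409. It was 191 in place of 94.4 in platelet-marker barcodes and 43.4 in place of 24.2 in Ptprc barcodes. Barcodes that met no rule had 25.8 in place of 3.15. Intervals and floors given here cover counting error only. A floor is the level of 3 UMIs, which was 28.6 and 24.2 CPM in mesothelial/collagen, 83.0 and 69.1 CPM in platelet-marker, and 14.2 and 117 CPM in Ptprc barcodes, so that the Ptprc barcodes of replicate 2 were too few to bound a level tightly. Pooled bounds over Ptprc barcodes use a floor over both libraries, which rests mostly on replicate 1. They can therefore exceed the bound that either library gives alone.

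**Figure D1:**
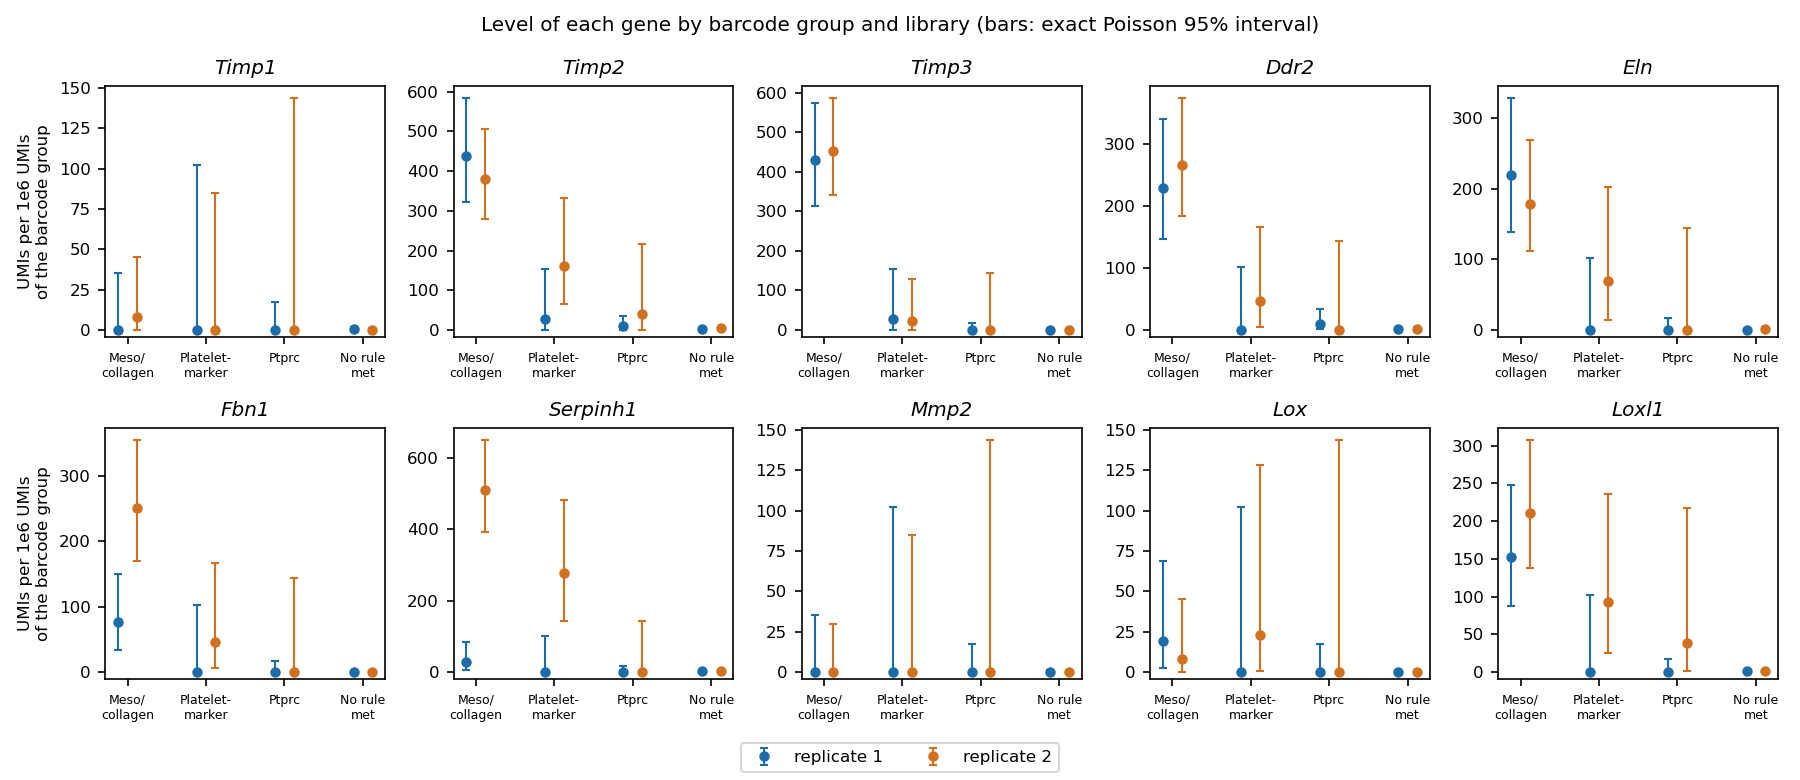
Level of each of the 10 genes (UMIs per 1e6 UMIs of the barcode set, linear axes that differ between panels) in mesothelial/collagen, platelet-marker and Ptprc barcodes and in barcodes that met no rule, with replicate 1 and replicate 2 as separate points and bars for the exact Poisson 95% interval. Timp2 and Timp3 stood between 380 and 453 CPM in the mesothelial/collagen barcodes of both libraries, Serpinh1 stood at 28.6 and 509 CPM, and Mmp2 had no UMI anywhere.

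Of the inhibitors, Timp2 and Timp3 were abundant in the mesothelial/collagen barcodes and Timp1 was almost not detected. Timp2 (ENSMUSG00000017466, mm10 chromosome 11, 118301069 to 118355740, minus strand), which inhibits metalloproteinases and also takes part in activating pro-MMP2, had 46 UMIs in 16 of 32 barcodes of replicate 1 (439 CPM, 95% interval 321 to 585) and 47 UMIs in 13 of 23 barcodes of replicate 2 (380 CPM, 279 to 505). Both libraries were close, at 409 ± 41.5 CPM (SD, n = 2). Ptprc barcodes had 2 and 1 Timp2 UMIs, and pooled over libraries Timp2 was 32.2-fold higher in mesothelial/collagen barcodes (counting interval 10.7 to 159). Timp2 was also the member with most UMIs among barcodes that met no rule, 21 over both libraries, or 3.10 CPM. It overlaps Cep295nl on the same strand, and Ddr2, Eln, Fbn1 and Lox each overlap a gene on the opposite strand, whose reads cannot be told apart from theirs without strand.

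Timp3 (ENSMUSG00000020044, mm10 chromosome 10, 86300372 to 86349506, plus strand), the matrix-bound inhibitor, had 45 UMIs in 10 of 32 barcodes of replicate 1 (429 CPM, 313 to 574) and 56 UMIs in 11 of 23 barcodes of replicate 2 (453 CPM, 342 to 588). Its mean of 441 ± 16.7 CPM (SD, n = 2) had the narrowest relative spread of the members with at least 10 UMIs in both libraries. There was 1 Timp3 UMI in the platelet-marker barcodes of each library and none in Ptprc barcodes or in barcodes that met no rule, so the pooled level was at least 35.0-fold higher than in Ptprc barcodes, taken against the floor over both libraries. The gene lies inside the longer gene Syn3, which is on the opposite strand, and details of strand in the counting are not given in the sources used here. Syn3 had 1 and 12 UMIs in 1 and 4 of the mesothelial/collagen barcodes, of which 1 and 3 also had Timp3, fewer than the 45 and 56 Timp3 UMIs. Timp1 (ENSMUSG00000001131, chromosome X, 20870166 to 20874735), an inhibitor that many cells switch on in injury and that lies inside Syn1 in the same way, had 0 and 1 UMI in mesothelial/collagen barcodes, 0 in platelet-marker and Ptprc barcodes and 2 in barcodes that met no rule. The exact Poisson upper limit of Timp1 in replicate 1 was 35.2 CPM, so a low level could not be told from 0 at this depth.

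The promoter of Timp3 is shown because no other tested member had as large a fitted difference from Ptprc barcodes. It is the RefSeq window before the start site (GRCm38.p6, chr10:86300162-86300371, plus strand), cut where the annotated gene begins. A TATA box, searched as the letters TATAAA on both strands, is not in these 210 bases, and 9.92% of 27025 RefSeq promoters hold it in a window of this length. A GC box, searched as the letters GGGCGG on both strands, is also absent and is held by 26.7% of them. No match says only that these letters are absent from the window.
Timp3: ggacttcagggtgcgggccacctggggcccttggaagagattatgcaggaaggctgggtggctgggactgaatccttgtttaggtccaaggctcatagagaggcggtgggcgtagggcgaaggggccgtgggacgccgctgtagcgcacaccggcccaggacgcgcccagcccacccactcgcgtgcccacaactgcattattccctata

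Ddr2 (ENSMUSG00000026674, mm10 chromosome 1, 169972307 to 170110762, minus strand), the fibrillar collagen receptor, was found in the mesothelial/collagen barcodes of both libraries at like levels. It had 24 UMIs in 13 of 32 barcodes of replicate 1 (229 CPM, 147 to 340) and 33 UMIs in 12 of 23 barcodes of replicate 2 (267 CPM, 184 to 375), a mean of 248 ± 26.8 CPM (SD, n = 2). Platelet-marker barcodes had 0 and 2 UMIs and Ptprc barcodes 2 and 0. The 2 UMIs among Ptprc barcodes came from 1 barcode that also met the mesothelial/collagen rule, and without barcodes that met several rules Ddr2 was at least 19.4-fold higher in mesothelial/collagen than in Ptprc barcodes.

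Of the elastic fibre pair, Eln was even between libraries and Fbn1 was not. Eln (ENSMUSG00000029675, mm10 chromosome 5, 134702593 to 134747323, minus strand), the elastin gene, had 23 UMIs in 10 barcodes of replicate 1 (219 CPM, 139 to 329) and 22 UMIs in 10 barcodes of replicate 2 (178 CPM, 111 to 269), a mean of 199 ± 29.3 CPM (SD, n = 2). There was no Eln UMI in Ptprc barcodes, and the pooled level was at least 15.6-fold higher in mesothelial/collagen barcodes. Fbn1 (ENSMUSG00000027204, mm10 chromosome 2, 125300594 to 125507993, minus strand), the fibrillin-1 gene, had 8 UMIs in 6 barcodes of replicate 1 (76.3 CPM, 32.9 to 150) and 31 UMIs in 11 barcodes of replicate 2 (251 CPM, 170 to 356). The intervals did not overlap, and the mean of 163 CPM had an SD of 123 (n = 2). Fbn1 also had no UMI in Ptprc barcodes, and its bound pooled over both libraries was at least 13.5-fold. Within libraries, 76.3 CPM stood against a Ptprc floor of 14.2 CPM in replicate 1, and 251 against 117 CPM in replicate 2. Each library alone thus gives a smaller bound.

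The crosslinking enzymes differed from each other. Loxl1 (ENSMUSG00000032334, mm10 chromosome 9, 58287738 to 58313186, minus strand), a lysyl oxidase known for its part in elastic fibre upkeep in mice, had 16 UMIs in 8 barcodes of replicate 1 (153 CPM, 87.2 to 248) and 26 UMIs in 9 barcodes of replicate 2 (210 CPM, 137 to 308), a mean of 181 ± 40.7 CPM (SD, n = 2). Ptprc barcodes had 0 and 1 Loxl1 UMI, a 43.6-fold pooled difference with a counting interval of 7.41 to 1763. Lox (ENSMUSG00000024529, mm10 chromosome 18, 52516067 to 52529867, minus strand), the founding lysyl oxidase, had 2 and 1 UMI in mesothelial/collagen barcodes, 0 and 1 in platelet-marker barcodes and none elsewhere. The platelet-marker UMI of Lox lay in the barcode that met both rules. All 3 mesothelial/collagen barcodes with Lox also had Loxl1.

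Serpinh1 (ENSMUSG00000070436, mm10 chromosome 7, 99345376 to 99353239, minus strand), the collagen chaperone, differed most between the libraries. It had 3 UMIs in 3 of 32 barcodes of replicate 1 (28.6 CPM, 5.90 to 83.6) and 63 UMIs in 11 of 23 barcodes of replicate 2 (509 CPM, 391 to 651), so that the mean of 269 CPM had an SD of 340 (n = 2). The replicate 2 UMIs were uneven over these 11 barcodes, with 16, 12 and 12 in the 3 deepest and 8 in another. Of these 3, 1 with 12 UMIs was the barcode that also met the platelet rule. Ptprc barcodes had no Serpinh1 UMI in either library, and the bound pooled over both libraries was at least 22.8-fold. That bound sets UMIs almost all from replicate 2 against a Ptprc floor mostly from replicate 1. Within libraries, 28.6 CPM stood against a Ptprc floor of 14.2 CPM in replicate 1, and 509 against 117 CPM in replicate 2. Each library alone thus gives a smaller bound. Barcodes that met no rule held 14 UMIs. Replicate 2 mesothelial/collagen barcodes were also deeper, with a median of 4592 UMIs against 2203.5 in replicate 1, and the part of depth per barcode or of mitochondrial share in this difference was not tested.

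The promoter of Serpinh1 is shown as that of the member with the widest spread between libraries (RefSeq, GRCm38.p6, chr7:99353240-99353489, minus strand, printed in the sense of the gene and cut where the annotated gene begins). Capitals mark its only GC box, which 32.9% of 27025 RefSeq promoters hold in a window of 250 bases. No TATA box was found on either strand of this window, and 13.0% of such windows hold it. Of the 10 genes, 6 had an entry in the promoter table.
Serpinh1: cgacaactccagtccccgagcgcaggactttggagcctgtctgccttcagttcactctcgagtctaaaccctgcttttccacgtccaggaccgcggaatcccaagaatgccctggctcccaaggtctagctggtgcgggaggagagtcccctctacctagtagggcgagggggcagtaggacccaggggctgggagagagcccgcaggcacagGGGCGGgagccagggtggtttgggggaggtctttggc

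Mmp2 (ENSMUSG00000031740, mm10 chromosome 8, 92827291 to 92853420, plus strand), gelatinase A, the protease that TIMP2 both binds and helps activate, had 0 UMIs in all 1857 barcodes. The exact Poisson upper limits of these 0 counts were 35.2 and 29.8 CPM in the mesothelial/collagen barcodes of replicate 1 and replicate 2. Other metalloproteinases were present. Mmp14, the membrane-bound enzyme that activates pro-MMP2, had 11 UMIs in 8 barcodes and 14 UMIs in 6 barcodes of the mesothelial/collagen set (109 ± 5.86 CPM, SD, n = 2), with 1 UMI in platelet-marker and 1 in Ptprc barcodes over both libraries.

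The share of barcodes with a UMI was also highest in the mesothelial/collagen set. Any of the 10 genes was found in 24 of 32 mesothelial/collagen barcodes of replicate 1 (75.0%, exact binomial 95% interval 56.6 to 88.5) and 20 of 23 of replicate 2 (87.0%, 66.4 to 97.2), with at most 6 and 7 genes in 1 barcode. Platelet-marker barcodes had any of them in 2 of 30 and 2 of 32 (6.67% and 6.25%), and Ptprc barcodes in 3 of 85 and 2 of 12 (3.53% and 16.7%). Depth differed between the sets, so each barcode with at least 1000 UMIs was thinned to 1000. Thinning evened total UMIs only, and the mitochondrial and haemoglobin shares given above still differed between sets. The expected share with any of the genes was then 73.3 ± 6.36% in mesothelial/collagen barcodes, 8.91 ± 9.66% in platelet-marker barcodes, 7.43 ± 8.59% in Ptprc barcodes and 1.14 ± 1.07% in barcodes that met no rule (SD, n = 2 each). Thinning left out 5 and 4 mesothelial/collagen, 16 and 23 platelet-marker and 16 and 5 Ptprc barcodes. Free RNA in droplets gives stray UMIs in cells that do not express a gene, and its amount was not measured here. The thinned Ptprc shares were 1.36% of 69 barcodes and 13.5% of 7. The 69 include 1 barcode with Ddr2 that also met the mesothelial/collagen rule. Barcodes that met no rule, mostly haemoglobin by UMIs, had 0.377% and 1.90%. Whether Ptprc barcodes express these genes was not tested, and their median depth (given above) was below that of the mesothelial/collagen set. The thinned share in platelet-marker barcodes was 2.08% of 14 and 15.7% of 9 barcodes. The 9 include the barcode that also met the mesothelial/collagen rule. With 2 values per set this far apart, the platelet-marker and Ptprc shares could not be told apart.

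**Figure D2:**
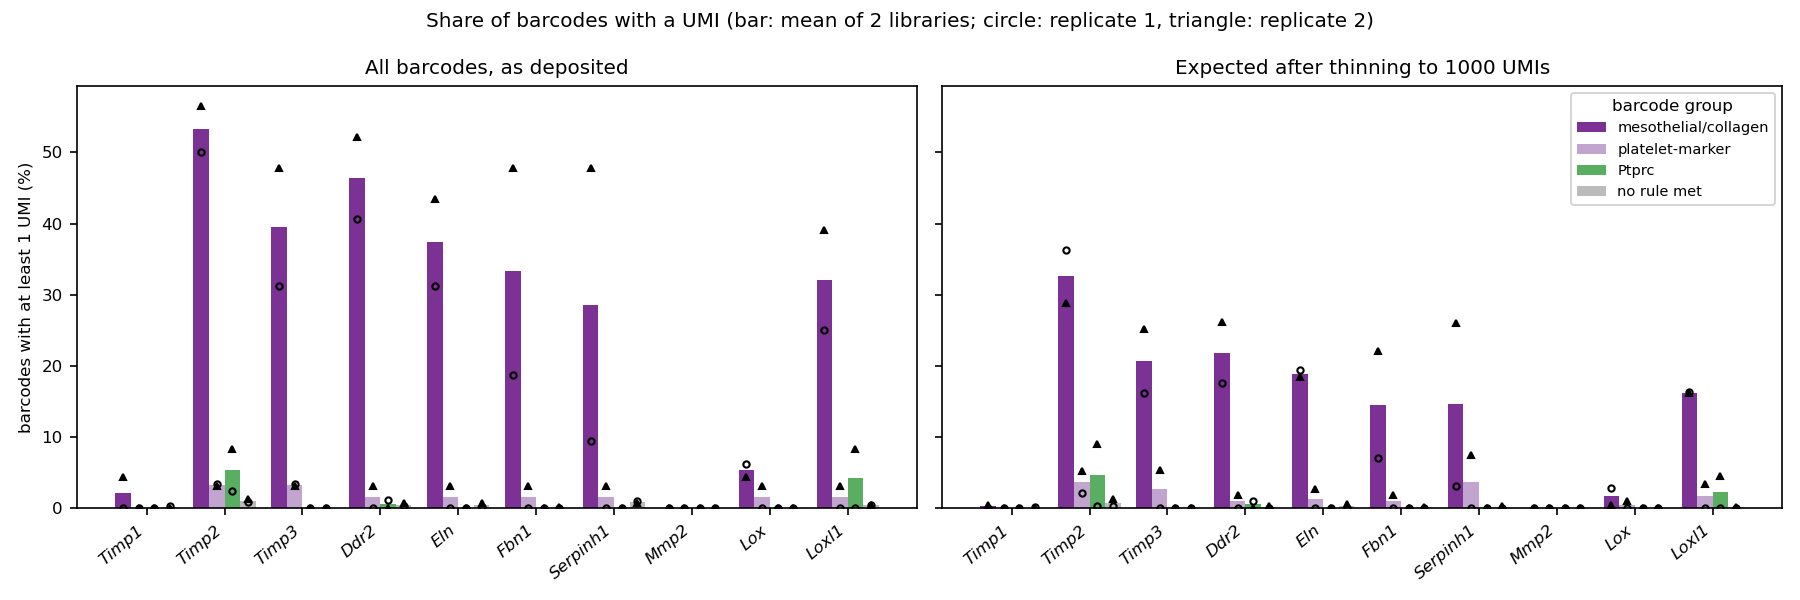
Percentage of barcodes with at least 1 UMI of each gene, in all barcodes as deposited (left) and in expectation after thinning each barcode with at least 1000 UMIs to 1000 (right), for mesothelial/collagen, platelet-marker and Ptprc barcodes and barcodes that met no rule, with bars for the mean of 2 libraries and symbols for each library. Timp2 was in 50.0% and 56.5% of mesothelial/collagen barcodes before thinning, and after it each gene but Mmp2 had a higher mean there than in any other set, though on 1 UMI for Timp1 and 3 for Lox.

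The few UMIs outside the mesothelial/collagen set had their own distribution. Among barcodes that met no rule, 21 of 863 in replicate 1 (2.43%) and 24 of 783 in replicate 2 (3.07%) had any of the genes, and 18 and 22 of these were over 20% mitochondrial, against 377 of 863 and 289 of 783 of all such barcodes. Only 2 and 0 of them were among the 473 and 387 barcodes with at least 40% haemoglobin UMIs. In the platelet-marker set, 31 of the 32 UMIs of replicate 2 lay in the barcode that also met the mesothelial/collagen rule, among them all 12 of Serpinh1, 7 of Timp2 and 4 of Loxl1. Without it, the platelet-marker barcodes had 3 UMIs of the 10 genes over both libraries, 1 of Timp2 and 2 of Timp3. With all 3 barcodes that met several rules left out of every set, the pooled level of the 10 was 45.1-fold higher in mesothelial/collagen than in platelet-marker barcodes (counting interval 15.3 to 219) in place of 4.58-fold (3.23 to 6.69).

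Sums per barcode set and library were then tested with edgeR's quasi-likelihood test, with barcodes that met several rules left out and the library as a block. Of the 10 genes, 5 passed the filter on low counts and the other 5 (Timp1, Fbn1, Serpinh1, Mmp2 and Lox) did not, and the 5 could pass through the mesothelial/collagen sums alone. Their number is therefore a description and supports nothing about the 10 genes. Each of the 5 was called higher in mesothelial/collagen than in Ptprc barcodes, where 25.7% of the 1449 genes tested were called higher and the median change over all of them was 0.41 on the log2 scale. The log2 fold change was 8.48 for Timp3 (SE 1.42, edgeR adjusted p = 5.96e-08), 7.48 for Ddr2 (SE 1.36, edgeR adjusted p = 4.90e-07) and 7.47 for Eln (SE 1.42, edgeR adjusted p = 1.26e-06). It was 5.24 for Timp2 (SE 1.06, edgeR adjusted p = 6.18e-06) and 5.02 for Loxl1 (SE 1.18, edgeR adjusted p = 0.000102). The fitted values of Timp3, Ddr2 and Eln rest on 0 UMIs in Ptprc barcodes and depend on the prior count, so the bounds of 36.9, 19.4 and 15.4-fold for the same barcodes are the firmer figures. Timp2 was 3.40 without replicate 1 and 5.65 without replicate 2. With 2 residual degrees of freedom the spread was shared across all genes, so how far a gene's 2 libraries lie apart has little weight in its p-value.

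**Figure D3:**
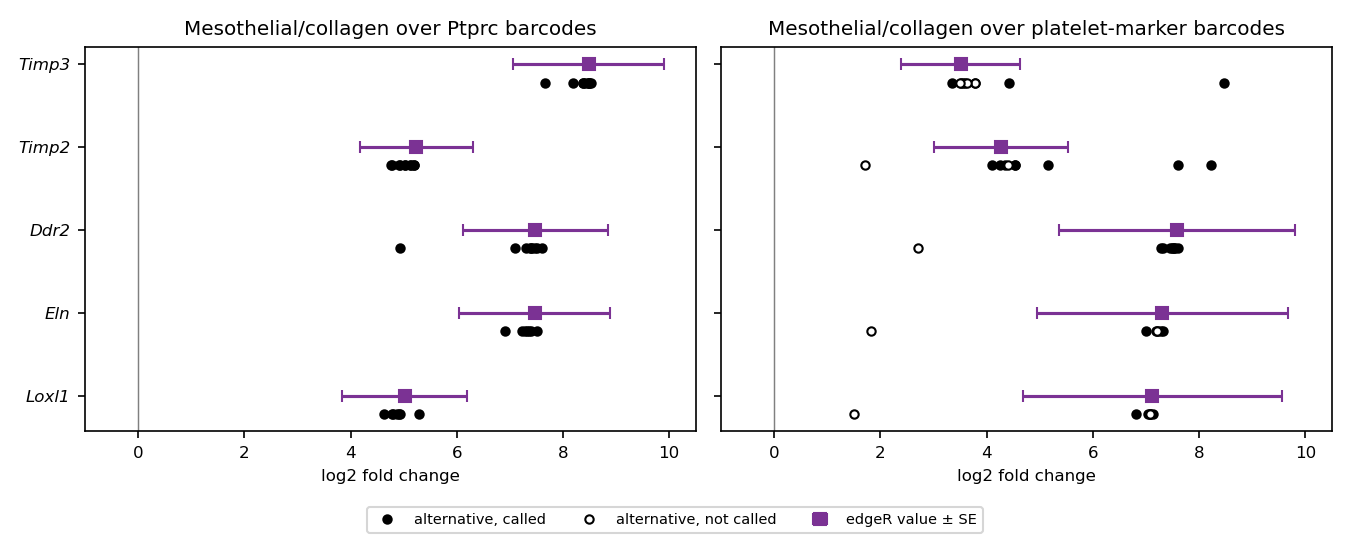
Log2 fold change of the 5 genes that passed the filter on low counts, in mesothelial/collagen over Ptprc barcodes (left) and over platelet-marker barcodes (right), with squares and bars for the edgeR value and its standard error and circles for alternative settings (filled where called, open where not). Against Ptprc barcodes the values ran from 4.64 to 8.53 and all with an adjusted p were called, while against platelet-marker barcodes 2 settings, DESeq2 and the one that kept the 3 barcodes meeting several rules, left none called.

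Without the filter on low counts, 2.67% of 14409 genes were called higher in mesothelial/collagen than in Ptprc barcodes. Fbn1 (log2 fold change 6.30, edgeR adjusted p = 0.0109) and Serpinh1 (6.01, edgeR adjusted p = 0.0155) were then called as well, and Lox and Timp1 were not (edgeR adjusted p = 0.938 for each). Replicate 2 held 63 of the 66 mesothelial/collagen UMIs of Serpinh1. DESeq2, with 6.47% of its genes called higher, called Timp3 (adjusted p = 0.00368) and Timp2 (adjusted p = 0.0328) and gave no adjusted p for Ddr2, Eln and Loxl1.

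Against platelet-marker barcodes, 52.4% of genes tested were called higher in mesothelial/collagen barcodes and the median change over all genes tested was 3.56 on the log2 scale. The same 5 genes were called, with Ddr2 at 7.59 (edgeR adjusted p = 0.00258), Eln at 7.31 (0.00566), Loxl1 at 7.12 (0.00831), Timp2 at 4.27 (0.00286) and Timp3 at 3.51 (0.00512, edgeR adjusted p for each). A call was thus the commoner outcome among all genes tested, and Timp3 was below the median. All 5 calls ended when the 3 barcodes that met several rules were kept in each set they met, with edgeR adjusted p from 0.178 to 0.472, and DESeq2, with 19.6% of its genes called higher, called none of them (Timp2 adjusted p = 0.0590, Timp3 adjusted p = 0.0731). Without the filter on low counts, with 2.12% of genes called higher, Ddr2 and Timp2 kept their calls (edgeR adjusted p = 0.0462 and 0.0412). Between platelet-marker and Ptprc barcodes, where 13.0% of genes were called higher in the platelet-marker sums (189 higher and 516 lower, or 110 and 757 when scaled by total UMIs alone), Timp3 alone was called (log2 fold change 4.97, edgeR adjusted p = 0.0431). That call rests on 2 Timp3 UMIs in 2 platelet-marker barcodes against 0, and 4 of 10 alternatives kept it, DESeq2 (10.4% of its genes higher) and the fit without a filter (0.763% higher) not among them.

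Within the mesothelial/collagen set the genes were not distributed alike. Timp3 was concentrated, with 36 of its 45 UMIs in 3 barcodes of replicate 1 and 43 of 56 in 3 barcodes of replicate 2, each with at least 5 UMIs, a limit set after the values were seen, and with mitochondrial shares from 1.36% to 5.27%. These 6 barcodes held 19.3% of the UMIs of the set and 78.2% of its Timp3 UMIs, a share that follows from picking them by Timp3. They held 10.8% of its Timp2 UMIs (0% in replicate 1 and 21.3% in replicate 2) and 4.44% of its Eln UMIs. Pooled over libraries, their shares of Fbn1 (20.5%), Loxl1 (21.4%), Ddr2 (22.8%) and Serpinh1 (40.9%) were above their share of all UMIs. By library their share of all UMIs was 16.7% and 21.6%, and only Ddr2 (20.8% and 24.2%) was above it in both. Fbn1 (37.5% and 16.1%), Loxl1 (12.5% and 26.9%) and Serpinh1 (0% and 42.9%) were each above it in 1 library and below it in the other. Timp2 and Timp3 were found together in 11 barcodes, 37.9% of the 29 with Timp2 and 52.4% of the 21 with Timp3. Over all 55 barcodes Timp3 was in 38.2% and Timp2 in 52.7%, so this overlap shows no separation of the 2 genes. Timp2 was found in 15 of 20 barcodes with Eln (75.0%) and 14 of 17 with Loxl1 (82.4%). Timp3 was found in 14 of 25 with Ddr2 (56.0%). Deeper barcodes hold more genes of every kind, so these counts are descriptions of 55 barcodes of 2 libraries.

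**Figure D4:**
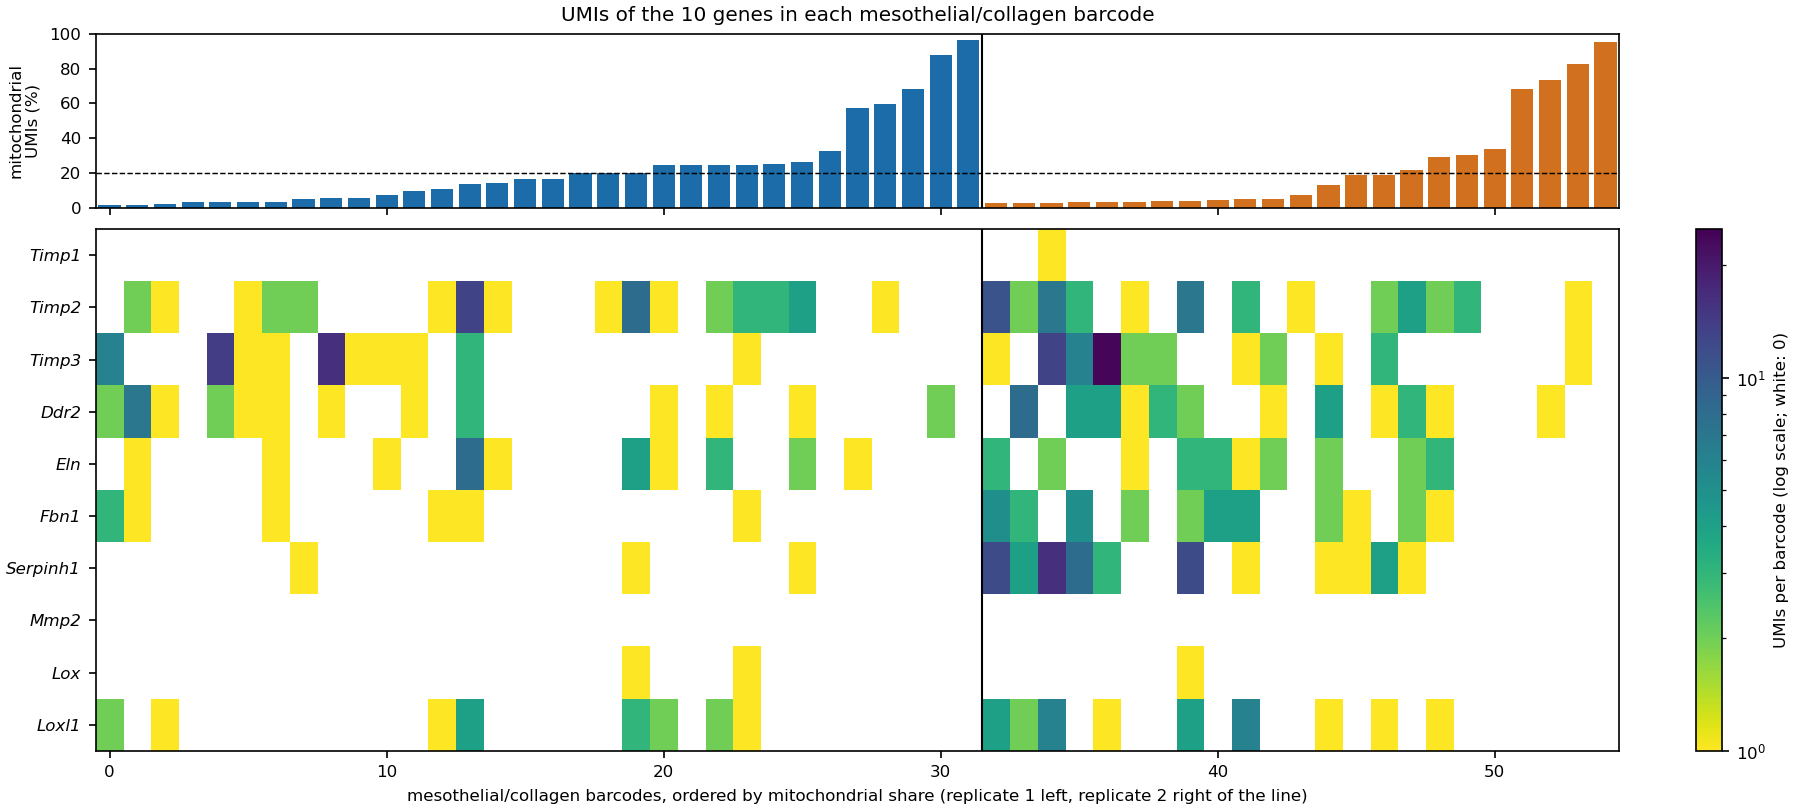
UMIs of the 10 genes (rows, log colour scale, white for 0) in each of the 55 mesothelial/collagen barcodes (columns), with replicate 1 left and replicate 2 right of the line and barcodes ordered by mitochondrial share, which the bars above give in percent with a dashed line at 20%. Timp3 UMIs lay almost all at the low end of the mitochondrial share, with 16 and 24 in the top barcode of each library, while Timp2 and Eln ran on past the line.

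A split of the set at 20% mitochondrial UMIs, made after the pattern was seen and therefore not tested, showed the same in numbers. Timp3 had 1 of its 45 UMIs in the 13 barcodes over 20% in replicate 1 and 1 of 56 in the 8 such barcodes of replicate 2. Timp2 had 22 of 46 and 10 of 47 there, and Eln 11 of 23 and 5 of 22. Of these, 1 barcode at 20.2% in replicate 1 held 8 Timp2 and 4 Eln UMIs. In replicate 2, 1 barcode at 21.5% held 4 and 2, so the values of both genes depend on where the limit was set. Per 1e6 UMIs that were neither mitochondrial nor haemoglobin, Timp3 stood at 72.2 in barcodes over 20% against 617 in the others in replicate 1, and at 98.0 against 559 in replicate 2. Timp2 stood at 1589 against 336 in replicate 1 and at 980 against 376 in replicate 2, and Eln at 795 against 168 and at 490 against 173. Ddr2 had no direction that held on both scales: it stood at 361 against 266 and at 490 against 285 on this one, and at 205 against 236 and 236 against 273 CPM of all UMIs, on 5 UMIs over the limit in each library. Of all UMIs, Timp3 stood at 41.1 against 546 and 47.3 against 536 CPM, Timp2 at 904 against 298 and 473 against 361 CPM, and Eln at 452 against 149 and 236 against 166 CPM, in the same directions as before. Fbn1 was lower over the limit in both libraries per all UMIs (41.1 against 86.9 and 142 against 273 CPM), on 1 and 3 UMIs there. Without mitochondrial and haemoglobin UMIs it had no shared direction (72.2 against 98.1 and 294 against 285). Loxl1 and Serpinh1 had no shared direction in the libraries on either scale.

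**Figure D5:**
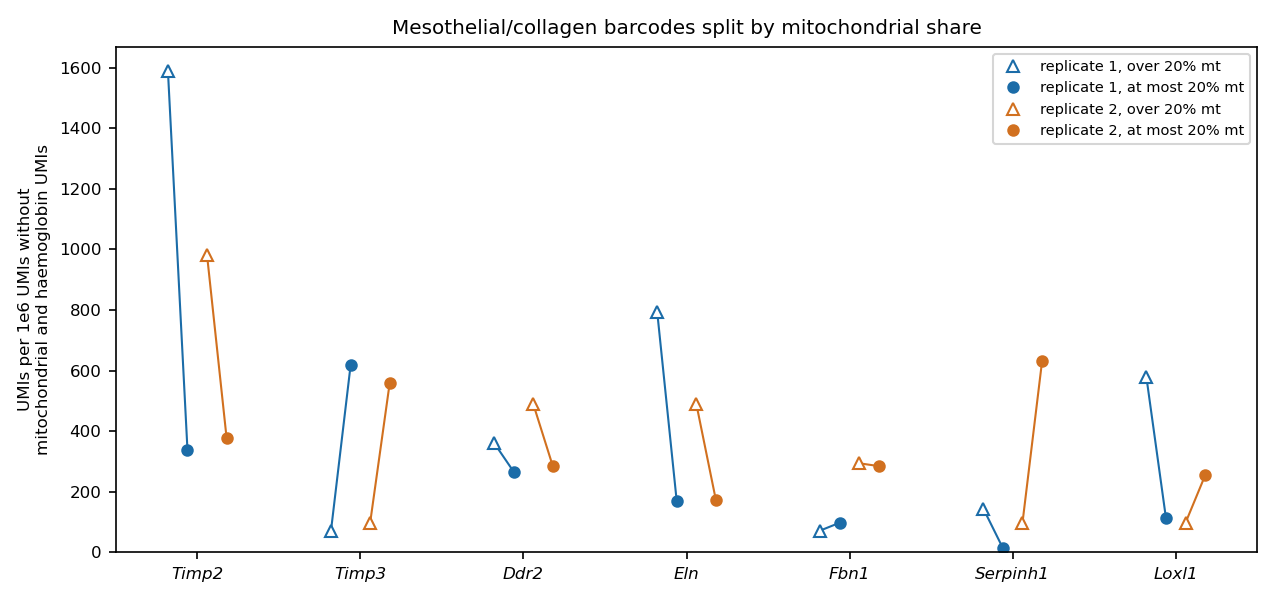
UMIs per 1e6 UMIs that were neither mitochondrial nor haemoglobin, for the 7 genes with more than 10 UMIs, in mesothelial/collagen barcodes over 20% mitochondrial UMIs (open triangles) and in the others (filled circles), joined within each library. Timp2 and Eln were higher and Timp3 lower over the limit in both libraries, and the points over the limit rest on 1 to 22 UMIs each.

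Genes of the same pathways, taken from whole lists, were read in the same way. Each gene called higher here could pass the filter through the mesothelial/collagen sums alone, and 25.7% of all genes tested were called higher there than in Ptprc barcodes, so the counts are descriptions. Of 15 elastic fibre genes, 4 passed the filter and 3 were higher in mesothelial/collagen than in Ptprc barcodes: Efemp1, which encodes fibulin-3 (41 and 66 UMIs against 2 and 1, log2 fold change 6.32, edgeR adjusted p = 9.75e-07), Fbln2, which encodes fibulin-2 (25 and 23 UMIs against 0 and 0, 7.65, edgeR adjusted p = 5.95e-07), and Ltbp4, a TGF-beta binding protein of elastic fibres (24 and 23 UMIs against 0 and 0, 7.45, edgeR adjusted p = 8.64e-07). Efemp1 was 3.83 without replicate 1 and 8.59 without replicate 2. Ltbp1 was not called against Ptprc barcodes (-1.45, edgeR adjusted p = 0.380) and was lower than in platelet-marker barcodes (-4.31, edgeR adjusted p = 0.000336), with 1 and 2 UMIs against 8 and 7. Of 10 adhesive glycoprotein and proteoglycan genes, 2 passed and 1 was called: Sparc, a collagen-binding protein, with 32 and 55 UMIs in mesothelial/collagen barcodes against 0 and 0 in Ptprc barcodes (7.96, edgeR adjusted p = 1.14e-07). Fn1, the fibronectin gene, was not called (1.47, edgeR adjusted p = 0.186) and changed sign between libraries, with 21 and 69 UMIs against 68 and 0. Hspg2, the perlecan gene, had 23 and 10 UMIs against 1 and 0 and was not tested.

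The other lists held no gene called in either direction against Ptprc barcodes, where 11.0% of all genes tested were called lower, and few of their genes were tested. Of 8 receptor genes, 3 passed the filter, the integrin chains Itgb1 (log2 fold change 1.61, edgeR adjusted p = 0.139) and Itgav (1.21, edgeR adjusted p = 0.205) and the hyaluronan receptor Cd44 (-0.11, edgeR adjusted p = 0.952). Of 23 other metalloproteinase genes, 1 passed, the sheddase Adam10 (1.48, edgeR adjusted p = 0.168), and 7 had no UMI in any barcode. Adamts5, an aggrecan-cutting protease, had 3 and 40 UMIs in mesothelial/collagen barcodes against 0 and 0 in Ptprc barcodes, uneven between libraries in the same direction as Serpinh1. Of 15 collagen folding and crosslinking genes none passed the filter. The prolyl hydroxylase gene P4ha1 had 9 and 29 UMIs in mesothelial/collagen barcodes against 9 and 0 in Ptprc barcodes, the disulfide isomerase gene P4hb 12 and 14 against 10 and 2, and the cyclophilin gene Ppib 12 and 13 against 5 and 0. P4hb and Ppib stood at 114 ± 0.883 and 110 ± 6.60 CPM in mesothelial/collagen barcodes (SD, n = 2), while P4ha1, at 160 ± 105 CPM, was higher in replicate 2, as Serpinh1 was.

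Of 6 other protease inhibitor genes, Timp4 had no UMI in any barcode. Serpine2, which encodes protease nexin-1, was found mainly in another set than the TIMP genes, with 0 and 2 UMIs in mesothelial/collagen barcodes, 11 and 7 UMIs in 6 and 6 platelet-marker barcodes, and none in Ptprc barcodes. It was the only gene of its list to pass the filter and was not called in mesothelial/collagen over Ptprc barcodes (log2 fold change 3.03, edgeR adjusted p = 0.258). Against platelet-marker barcodes it was called lower (-5.10, edgeR adjusted p = 4.91e-05), as were 174 of 1449 genes tested. Platelet-marker over Ptprc barcodes gave 8.13 (edgeR adjusted p = 1.27e-06), where 13.0% of genes were called higher. Serpine2 could pass the filter through the platelet-marker sums alone.

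The genes whose barcodes were most like those of the 10 were ranked by the Jaccard index, the number of barcodes with both genes over the number with either, across 1857 barcodes and 6546 genes found in at least 10 of them. For barcodes with any of the 10 genes, 96 in all, the nearest were Efna5 (0.413), Aebp1 (0.398) and Mast4 (0.381). For Timp3 they were Rian and Tnks1bp1 (0.5 each) and Sema3d (0.463), and for Timp2 Bicc1 and Bicd1 (0.400 each) and Cobl (0.385). For Ddr2 they were Gpr39 (0.465), Zfp462 (0.463) and Efna5 (0.456), for Eln Cachd1 (0.412), 2610307P16Rik and Bnc2 (0.400 each), and for Fbn1 Ddo (0.5), Neo1 (0.486) and Rbfox2 (0.485). For Loxl1 they were Tgm2 (0.425), Ddo (0.393) and Slit3 (0.375), and for Serpinh1 the index was lower, with Hspb8 (0.355), Dab2 (0.311) and Cobl (0.308). Timp2 and Timp3 shared none of their 3 nearest genes, and Timp3 shared none with any other member either. With lists of 3 out of 6546 genes, this does not show that Timp2 and Timp3 lie in separate barcodes. The index moves with depth and with how many barcodes hold a gene, so it describes these libraries.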

How the data were processed

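Single-cell RNA was measured in 2 libraries of iChip-enriched mouse blood. The deposited matrices hold counts of UMIs for each gene in each barcode, as whole numbers with no normalization. The submitters' processing notes name Cell Ranger 7.1.0, Seurat 5 and mm10. The calling of barcodes, the treatment of doublets and the use of strand are not given in the sources used here, and no doublet caller was run. Totals were 3967318 and 3329292 counts.

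The 10 genes and all lists were chosen with earlier results of these data known. Named genes are the 10, at most 3 per related list by UMIs in mesothelial/collagen barcodes among genes with at least 10 UMIs, the hosts Syn1, Syn2 (0 UMIs) and Syn3, and 3 nearest genes by Jaccard index. Ltbp1, Timp4 and the marker genes are named to complete a count, after their values were seen, and 1 gene of a related list is not reported here.

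Levels are counts per 1e6 UMIs of a barcode set, with exact Poisson intervals, and shares have exact (Clopper-Pearson) intervals (scipy 1.17.1). Group sums were tested with edgeR 4.0.16 (R 4.3.3; filterByExpr, TMM, quasi-likelihood, library as block, Benjamini-Hochberg over 1449 genes, threshold 0.05), tested on simulated data, with DESeq2 1.42.0 as an alternative. The library number pairs the sums because each library gave all of its sums. Of 32285 gene IDs, 99.6% matched GENCODE M21 (mm10).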

Additional observations from a re-analysis of the deposited data

How the results depend on the processing

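The 5 tested genes were higher in mesothelial/collagen than in Ptprc barcodes under each alternative that gave them an adjusted p, 43 values in all, and their log2 fold changes ran from 4.64 to 8.53. The count of called genes among the 10 fell to 3 with mitochondrial and haemoglobin genes left out and to 3 with barcodes over 20% mitochondrial left out, because Eln and Loxl1 then did not pass the filter, and to 2 with DESeq2. Over all genes, 373 were higher and 160 lower there, and the median change of 0.41 was 0.12 when scaled by total UMIs alone and 0.22 by DESeq2's size factors. DESeq2 called 81 and 42, leaving out barcodes over 20% mitochondrial called 229 higher, and keeping barcodes that met several rules called 95 lower.

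Against platelet-marker barcodes (759 genes higher, 174 lower, 5 of the 10 genes), no filter called 306 higher and 2 of the 10, DESeq2 212 and 0, and keeping the 3 barcodes that met several rules 4 higher, 58 lower and 0 of the 10. Leaving out mitochondrial and haemoglobin genes called 3 of the 10, and leaving out barcodes over 20% mitochondrial called 69 lower and 3 of the 10. Of 43 values of the 5 genes there, 10 missed the threshold. Between platelet-marker and Ptprc barcodes (189 higher, 516 lower), total UMIs alone called 110 higher, no filter 110 and 126 lower, DESeq2 124 and 250, keeping shared barcodes 60 lower, and leaving out barcodes over 20% mitochondrial 69 higher. Timp3 was not called in these 5 settings, nor with mitochondrial and haemoglobin genes left out, so 0 of the 10 genes were called. The causes were not tested.

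The summed level was 1592 to 2263 CPM, and the share of mesothelial/collagen barcodes with any of the genes 75.0% to 87.0%, when 1 library was left out. That share was 89.5% without barcodes over 20% mitochondrial and 92.9% with at least 3 rule genes, and at 500 UMIs per barcode the expected share was 49.2%. The log2 fold change of Fn1 was -0.40 without replicate 2 and 7.83 without replicate 1. Cd44 was 0.074 without barcodes over 20% mitochondrial, 1.37 without replicate 1 and -1.20 without replicate 2. With 1 library left out there were no residual degrees of freedom, so fold changes are values with no test and calls were not counted. Without the replicate block, 429 genes were higher and 198 lower in mesothelial/collagen than in Ptprc barcodes, and the block changed no call among the 10 genes. Depth limits Timp1, Lox and Mmp2 most, with 0 to 2 UMIs per library.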
